A study of Mus musculus with 6 samples.

Results

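The solute carrier (Slc) genes encode membrane proteins that move amino acids, sugars, ions, metals, neurotransmitters, nucleotides and vitamins across the plasma membrane, the mitochondrial inner membrane and the membranes of vesicles. Here they were taken as every gene whose name beside a listed Ezh2 peak, on any of 6 arrays, was Slc followed by a number. The rule gave 201 genes of the 9614 named in the peak lists, and it includes Slc9a3r1 and Slc9a3r2, which encode regulators of a sodium-proton exchanger and not carriers. A gene has a name in these lists only where a peak was listed for it on at least 1 array, so Slc genes without any listed peak were not analysed here. The question the design poses is whether loss or knock-down of Brca1 changes where Ezh2 sits.

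Ezh2 is the enzyme of a Polycomb complex and methylates histone H3 on lysine 27, a mark of silenced genes. In mouse embryonic stem (ES) cells the complex is known to sit at CG-rich promoters of genes that are silent in these cells and are used later in particular tissues, among them genes of neurons. Many Slc genes are of that kind, such as the carriers of neurotransmitters, while others, such as many mitochondrial and Golgi carriers, are used in most cells.

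Ezh2 occupancy was measured by chromatin immunoprecipitation with an Ezh2 antibody, hybridised against input DNA on 2-colour NimbleGen promoter arrays with the ChIP DNA in Cy5 and the input in Cy3 on every array. PL2F8 cells, the Brca1 deficient ES line, gave 2 arrays. AB2.2 cells, the Brca1 wild-type ES line, also gave 2 arrays, and both lines are labelled with the strain 129/SvEvBrd-Hprtb-m2. R1 ES cells gave 1 array from cells transfected with Brca1 specific siRNA and 1 array from cells transfected with control siRNA, both harvested at 48 h. All cells were grown with LIF on gelatin. The sources used here do not give the Brca1 allele of PL2F8, PL2F8 and AB2.2 are each 1 line, and no label states that duplicates are separate cultures, so that p-values below measure only the spread between these arrays. The level of a gene is the mean log2 ratio of ChIP over input of the probes within 2000 bp of its start, each array centred on its median, so that 0 is the array's median probe and a difference of 1 between arrays is a doubling of the ratio. All 201 genes had such a value, from a median of 27 probes each (19 to 40). Windows of 18 members shared probes with a gene outside the family, such as Slc39a7 with Rxrb (38 of 39 probes), and Slc18a3 shared all 28 with Chat, so these values belong to both genes.

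Duplicate arrays correlated across all named windows with r = 0.998 in PL2F8 and 0.989 in AB2.2, as a description over windows of the same arrays, and the SD of the difference between duplicates was 0.061 in PL2F8 and 0.12 in AB2.2. Arrays of DNA cannot check the loss of Brca1 protein or RNA. Of 9 genes that mark ES cells, 6 had a window, with levels from -0.23 to 2.46, and of 7 fibroblast (feeder) genes 6 had one, with levels from 0.45 to 2.60; such levels of Ezh2 do not measure expression and so do not check the cell type. A higher ratio can come from more Ezh2 in each cell or from more cells that carry it, and these arrays cannot tell these apart. The array identifiers fall into 2 number series, with PL2F8 replicate 1 in the series of both R1 arrays and PL2F8 replicate 2 in that of both AB2.2 arrays.

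The promoters below are shown because they belong to genes on which the results below turn: a pair with the highest Ezh2 levels (Slc24a4, Slc32a1), a pair with the largest rises in PL2F8 (Slc8a2, Slc46a2), one that fell (Slc15a1) and one with almost no Ezh2 signal (Slc39a7). Each is 300 bases, 250 before and 50 after the start, 5′ to 3′ on the gene's strand, from RefSeq on GRCm38.p6, with every CG in capitals.
Slc24a4, chr12:102128477-102128776, plus strand: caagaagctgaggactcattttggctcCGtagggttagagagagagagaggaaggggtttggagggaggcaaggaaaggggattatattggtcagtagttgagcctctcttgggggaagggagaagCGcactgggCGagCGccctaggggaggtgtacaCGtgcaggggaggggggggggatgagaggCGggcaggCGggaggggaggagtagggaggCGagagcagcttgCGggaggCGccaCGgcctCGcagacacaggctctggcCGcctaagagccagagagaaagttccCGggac
Slc32a1, chr2:158610508-158610807, plus strand: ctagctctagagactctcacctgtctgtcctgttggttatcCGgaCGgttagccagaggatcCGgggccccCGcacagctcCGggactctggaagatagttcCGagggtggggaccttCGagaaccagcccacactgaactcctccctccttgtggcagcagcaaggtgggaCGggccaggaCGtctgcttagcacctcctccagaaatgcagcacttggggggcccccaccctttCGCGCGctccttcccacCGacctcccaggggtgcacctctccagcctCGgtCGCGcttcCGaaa
Slc8a2, chr7:16129576-16129875, plus strand: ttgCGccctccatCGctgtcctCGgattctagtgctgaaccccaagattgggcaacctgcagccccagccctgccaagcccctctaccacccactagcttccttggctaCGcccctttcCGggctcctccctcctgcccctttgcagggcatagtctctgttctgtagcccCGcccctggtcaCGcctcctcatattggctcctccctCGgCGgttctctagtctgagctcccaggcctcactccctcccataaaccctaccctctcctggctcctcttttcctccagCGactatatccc
Slc46a2, chr4:59915007-59915306, minus strand: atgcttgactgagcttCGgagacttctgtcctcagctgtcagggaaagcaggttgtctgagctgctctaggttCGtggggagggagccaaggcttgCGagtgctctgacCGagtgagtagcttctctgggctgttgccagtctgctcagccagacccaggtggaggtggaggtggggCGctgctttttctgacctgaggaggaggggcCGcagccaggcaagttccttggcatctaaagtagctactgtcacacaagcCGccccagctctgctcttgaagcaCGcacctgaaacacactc
Slc15a1, chr14:121505205-121505504, minus strand: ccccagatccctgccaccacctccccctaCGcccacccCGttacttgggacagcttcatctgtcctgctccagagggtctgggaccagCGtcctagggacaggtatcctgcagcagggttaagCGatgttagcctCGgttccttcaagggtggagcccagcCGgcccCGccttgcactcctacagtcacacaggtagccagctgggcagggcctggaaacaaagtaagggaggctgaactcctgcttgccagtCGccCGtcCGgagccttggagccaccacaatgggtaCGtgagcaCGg
Slc39a7, chr17:34031641-34031940, minus strand: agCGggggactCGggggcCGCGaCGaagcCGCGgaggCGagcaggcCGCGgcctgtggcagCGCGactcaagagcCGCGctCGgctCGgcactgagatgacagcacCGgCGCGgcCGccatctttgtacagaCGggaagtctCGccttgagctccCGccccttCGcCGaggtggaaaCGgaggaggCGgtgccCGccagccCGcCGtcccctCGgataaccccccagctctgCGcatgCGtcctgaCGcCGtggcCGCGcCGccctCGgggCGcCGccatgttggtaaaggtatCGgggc
These hold 14, 17, 10, 8, 12 and 42 CG, against a median of 7 over the 32851 promoters of the table. At least as many CG occur in 36.3%, 31.4%, 43.5%, 48.65%, 39.6% and 3.03% of all promoters in the same order. The most CG-rich of the 6, that of Slc39a7, was thus the one with the lowest Ezh2 level. The 6 were picked for their levels or differences, so they do not show how CG content goes with Ezh2. The motif CGCG, which reads the same on both strands, occurred 3 times in Slc32a1 and 7 times in Slc39a7 and not in the other promoters shown, and 38% of all promoters hold it. The motif GAGAG, counted on both strands with overlaps, occurred 9 times in Slc24a4, 2 times in Slc32a1 and 1 time in Slc8a2, and 62.0% of all promoters hold it. Names matched 160 of the 201 members to the table (79.6%), which is under the 80% set for comparing CG content with levels over the family, so that check is void. The start coordinates of the peak lists are of a build that the sources used here do not name, and are quoted below only as the lists give them.

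Ezh2 levels differed widely within the family. Over the 6 arrays, 67 members (33.3%) had a mean level above 1, against 26.7% of all named genes, 12 were above 2, and 20 were below 0. Among the 12 highest were Slc30a3, Slc24a4, Slc32a1, Slc7a10, Slc6a2, Slc9a2, Slc6a5, Slc44a5, Slc43a1, Slc35d3 and Slc8a3. The 5 lowest were Slc35a2, Slc39a7, Slc23a1, Slc35a4 and Slc39a4.

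Slc30a3, which loads zinc into synaptic vesicles, had the highest mean, with levels of 3.40 and 3.23 in PL2F8 and 3.34 and 2.95 in AB2.2, and 3.00 with Brca1 specific siRNA and 3.12 with control siRNA in R1 cells. Its PL2F8 and AB2.2 arrays overlapped, and the difference of 0.17 (SE 0.12) was not called (limma adjusted p = 0.246); it was 0.36 and called without AB2.2 replicate 1, and it turned to -0.022 without AB2.2 replicate 2, -0.073 after quantile normalization and -0.034 with centring on the probes of named starts, none of them called. Slc24a4, a sodium-calcium-potassium exchanger, had 3.42 and 3.18 in PL2F8, 2.91 and 2.70 in AB2.2, 3.17 with Brca1 specific siRNA and 3.20 with control siRNA. Slc32a1, the vesicular carrier of GABA and glycine, had 3.25 and 3.18 in PL2F8 and 2.72 and 2.31 in AB2.2, and 3.32 and 3.31 on the R1 arrays in the same order of treatments. Slc7a10, a light subunit of a heteromeric carrier of small neutral amino acids, had 3.14 and 3.08 in PL2F8 and 2.86 and 2.32 in AB2.2, with 3.27 after Brca1 specific siRNA and 3.35 after control siRNA. The means of these 4 genes over the 6 arrays, 3.00 to 3.17, lie closer together than the AB2.2 duplicates of Slc7a10, so their order is not resolved.

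**Figure D1:**
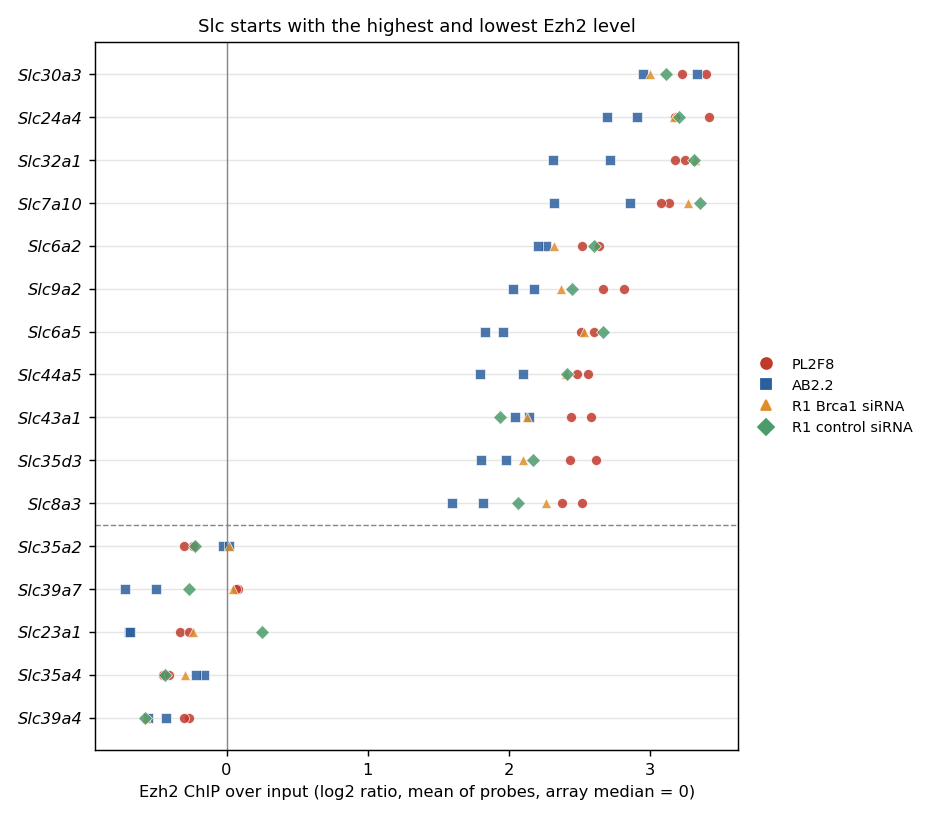
Mean log2 ratio of Ezh2 ChIP over input on each of the 6 arrays, for 11 of the 12 Slc genes of highest level (above the dashed line) and the 5 of lowest level (below it); each point is 1 array, coloured by group. The PL2F8 arrays lie right of both AB2.2 arrays at every one of the 11 except Slc30a3, as they do at 74% of all named genes.

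At the low end, Slc39a4, an intestinal zinc importer, was below 0 on all arrays, with -0.26 and -0.30 in PL2F8, -0.43 and -0.56 in AB2.2, -0.57 after Brca1 specific siRNA and -0.57 after control siRNA. Its rise of 0.21 was not called without either PL2F8 array (0.19 and 0.23) or after quantile normalization (0.049). Slc35a4, of the nucleotide sugar carriers, had -0.45 and -0.41 in PL2F8 and -0.16 and -0.22 in AB2.2, and shares 36 of its 38 probes with Apbb3. Slc39a7, which releases zinc from the endoplasmic reticulum, had 0.079 and 0.065 in PL2F8 and -0.50 and -0.72 in AB2.2, so that its rise of 0.68 (SE 0.084, limma adjusted p = 0.000282) ended near the array median.

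Every array has its own list of peaks from the authors, with a false discovery rate (FDR) per peak of at most 0.198. Within 2 kb of the start, 153 and 150 members had a listed peak in PL2F8, against 125 and 111 in AB2.2, and 146 had one with Brca1 specific siRNA, against 149 with control siRNA. All named genes show the same gap, with a peak at 66.7% and 65.4% in PL2F8, 56.2% and 49.3% in AB2.2, 65.0% with Brca1 specific siRNA and 63.4% with control siRNA. Peaks on all 6 arrays stood at 91 members (45.3%), against 37.4% of all named genes. A peak in PL2F8 on each array, with none in AB2.2, was listed at 31 members (15.4%), against 15.4% of all named genes. Of these 31 the control siRNA array had a peak at 10, against 616 of the 1479 named genes with that pattern. The reverse held for 5 members (2.49%), against 5.01% of all named genes. With an FDR of at most 0.05 the counts were 100 and 103 in PL2F8, 93 and 83 in AB2.2, 97 with Brca1 specific siRNA and 95 with control siRNA. Over all named genes that limit left 41.7% and 42.8% in PL2F8, 38.2% and 34.1% in AB2.2, 42.9% with Brca1 specific siRNA and 40.7% with control siRNA. The higher count in PL2F8 than in AB2.2, held by the family and by all named genes under both limits, is a count of calls made array by array and has no test.

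Between PL2F8 and AB2.2 the family's ratios of ChIP over input were mostly higher in the Brca1 deficient line, as were those of most named genes. The levels rose at 139 members and fell at 11, and 51 were not called (limma with Benjamini-Hochberg adjustment over all 9612 named windows, threshold 0.05). Over all named genes 63.4% rose and 8.47% fell, so the family's 69.2% and 5.47% lie near that background. The median difference was 0.37 over the members and 0.30 over all named genes. Both PL2F8 arrays lay above both AB2.2 arrays at 158 members and below both at 22, against 74% and 13.9% of all named genes. Rises of at least 0.5 numbered 72 (35.8%) and falls of that size 5, where the background is 26.9% and 1.98%.

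The size of this common shift depends on how the arrays are scaled. After quantile normalization, 111 members rose and 34 fell, against 50.1% and 20.4% of all named genes, and the median difference was 0.20 over the members and 0.14 over all. Centring each array on its probes near named starts gave 100 rises and 38 falls, against 41.4% and 22% of all named genes, with medians of 0.16 and 0.10. The share of called members that rose was 92.7% with median centring, 76.6% after quantile normalization and 72.5% with the other centring. Over all named genes that share was 88.2%, 71.1% and 65.3% in the same order. A rise smaller than the all-gene median of 0.30 is therefore not a rise relative to other genes. Of the 139 rises, 111 were also rises after quantile normalization and 0 were falls, all 72 rises of at least 0.5 were among those 111, and all 11 falls were falls again. Since quantile normalization lowered the median difference, it favours falls, and their return is no check on them.

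A choice of members by a peak on either R1 array adds no further filter on the PL2F8 and AB2.2 arrays. It is not independent of them, since the names and starts were taken from all 6 arrays. Of the 171 so chosen, 115 rose and 10 fell, against 66.4% and 6.03% of the genes chosen the same way, and the median difference was 0.37. PL2F8 replicate 2, the array in the number series of both AB2.2 arrays, gave 109 rises and 8 falls against AB2.2 on its own, where the background is 46.9% and 5.34%, and a median of 0.33. The control siRNA array of R1 cells, which are not labelled Brca1 deficient, lay above both AB2.2 arrays at 138 members (68.7%, against 66.5% of all named genes). A difference between PL2F8 and AB2.2 is a difference between 2 cell lines, and Brca1 and other differences between the lines cannot be told apart.

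By class of carrier, the share of members that rose lay between 61.5% (inorganic ions) and 76.7% (amino acids), against 63.4% of all named genes. The 22 carriers of neurotransmitters and related compounds had the highest mean level of the 8 classes, 1.29 ± 0.049 in PL2F8 and 1.04 ± 0.09 in AB2.2 (SD of the class mean over 2 arrays), 1.33 with Brca1 specific siRNA and 1.31 with control siRNA. Of these, 15 rose, 3 fell and 4 were not called, and 14 of 22 had a level above 1. The median difference of the class was 0.32, and after quantile normalization 11 rose and 6 fell. All 6 members of the vesicular subfamilies 17, 18 and 32 can be given. Slc32a1 rose by 0.70 (SE 0.12, adjusted p = 0.00144). Slc17a7, the vesicular glutamate carrier of cortical neurons, had 1.32 and 1.30 in PL2F8 and 0.60 and 0.52 in AB2.2 and rose by 0.75. Slc17a6, its counterpart of subcortical neurons, had 0.97 and 0.89 in PL2F8 and 1.04 and 1.15 in AB2.2, a difference of -0.16 (SE 0.071) that was not called (limma adjusted p = 0.0709). It was called as a fall after quantile normalization (-0.33), with scaling to the same median absolute deviation (-0.18), with centring on named starts (-0.37) and without AB2.2 replicate 1 (-0.22), and it was -0.10 without AB2.2 replicate 2 and 0.010 with the median of the Slc17a6 probes. Slc18a2, which fills vesicles with monoamines, rose by 0.52, and Slc18a3, which fills them with acetylcholine, rose by 0.57 from probes it shares in full with Chat. Slc17a5, a lysosomal sialic acid carrier used in most tissues, had the lowest level of the 6, 0.35 and 0.31 in PL2F8 and 0.11 and -0.12 in AB2.2, and rose by 0.34 in the mean, or 0.010 with the median of its probes, which was not called, nor was the mean without PL2F8 replicate 1 (0.32) or with centring on named starts (0.13). Without AB2.2 replicate 2 the difference at Slc17a5 was 0.22.

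The Slc6 subfamily, the sodium- and chloride-dependent carriers that clear neurotransmitters and amino acids from outside the cell, makes up the other 16 of the class, of which 10 rose and 3 fell, or 6 and 5 after quantile normalization. Slc6a5, the glycine carrier of inhibitory neurons, had 2.60 and 2.51 in PL2F8, 1.96 and 1.83 in AB2.2, 2.54 after Brca1 specific siRNA and 2.67 after control siRNA, and rose by 0.66 (SE 0.073, adjusted p = 0.000183). Slc6a11, a GABA carrier, rose by 0.79, with 2.31 and 2.12 in PL2F8 and 1.54 and 1.31 in AB2.2. Slc6a2, the noradrenaline carrier, had 2.64 and 2.52 in PL2F8 and 2.26 and 2.21 in AB2.2, and its rise of 0.34 was not called after quantile normalization (0.060), with the other centring (0.14) or without PL2F8 replicate 1 (0.28). Slc6a13, another GABA carrier, fell, with 0.45 and 0.38 in PL2F8 and 0.95 and 1.09 in AB2.2, a difference of -0.60 (SE 0.072, adjusted p = 0.000265). Slc6a7, the brain proline carrier, fell by 0.58 on the log2 scale, with 0.31 and 0.36 in PL2F8 and 1.06 and 0.76 in AB2.2. Slc6a15, a carrier of branched-chain amino acids and proline in neurons, fell by 0.20 on the log2 scale (adjusted p = 0.0353), and this call was lost without either PL2F8 array (-0.22 and -0.18) or without AB2.2 replicate 1 (-0.13).

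The 30 amino acid and peptide carriers had mean levels of 0.90 ± 0.046 in PL2F8 and 0.54 ± 0.053 in AB2.2, and 23 rose while 1 fell, or 21 and 4 after quantile normalization. In the Slc7 subfamily, whose members carry cationic amino acids or are light subunits of heteromeric carriers, all 9 rose, by 0.54 in the median, and 8 of 9 were also rises after quantile normalization. Slc7a10 rose by 0.52 (SE 0.15, adjusted p = 0.016), a call that was lost with centring on named starts (0.31); the difference was 0.25 without AB2.2 replicate 2 and 0.79 without AB2.2 replicate 1. Slc7a8, another light subunit, had 1.79 and 1.65 in PL2F8 and 1.36 and 1.36 in AB2.2. Slc38a3, a glutamine carrier of liver and brain, rose most in the class, with 1.76 and 1.64 in PL2F8 and 1.02 and 0.79 in AB2.2, and 2.09 with Brca1 specific siRNA and 1.70 with control siRNA. Slc43a1, a carrier of branched-chain amino acids, had a high level throughout, 2.58 and 2.44 in PL2F8 and 2.15 and 2.04 in AB2.2, and its rise of 0.42 was 0.017 after quantile normalization. Slc15a1, the peptide carrier of the intestinal brush border, was the one that fell, with 0.27 and 0.20 in PL2F8, 0.98 and 0.58 in AB2.2, 0.84 after Brca1 specific siRNA and 1.25 after control siRNA. Its difference was -0.54 (SE 0.12, adjusted p = 0.0047), or -0.34 without AB2.2 replicate 1.

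**Figure D2:**
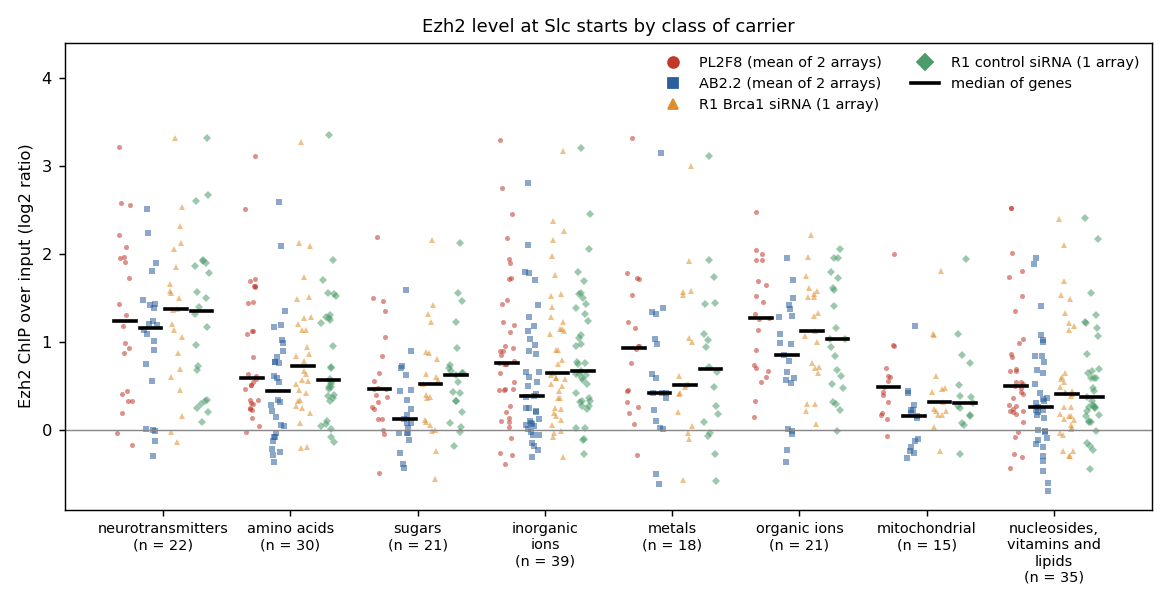
Ezh2 level (log2 ratio of ChIP over input) of each Slc gene by class of carrier, as the mean of 2 arrays for PL2F8 and AB2.2 and 1 array each for R1 Brca1 siRNA and R1 control siRNA; black bars are medians over the genes of the class. Neurotransmitter and organic ion carriers sit highest, and the PL2F8 median lies above the AB2.2 median in each of the 8 classes.

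The 21 carriers of organic ions, bile acids, monocarboxylates and urea stood second in level, with 1.26 ± 0.038 in PL2F8, 0.81 ± 0.088 in AB2.2, 1.11 with Brca1 specific siRNA and 1.06 with control siRNA. Here 16 rose, 0 fell and 5 were not called, whereas 13 rose and 2 fell after quantile normalization. Of the 10 monocarboxylate carriers (Slc16) 9 rose, all 9 again after quantile normalization. Slc16a9 had 2.00 and 1.87 in PL2F8 and 1.02 and 0.96 in AB2.2, a rise of 0.95 (SE 0.072, adjusted p = 7.73e-05). Slc16a12 was less different, 2.04 and 1.96 in PL2F8 and 1.75 and 1.65 in AB2.2, and its rise was not called without PL2F8 replicate 1 (0.26) or with centring on named starts (0.093). Slc10a1, the bile acid uptake carrier of hepatocytes, rose by 1.04, with 0.65 and 0.70 in PL2F8 and -0.30 and -0.43 in AB2.2. The 6 organic cation and anion carriers (Slc22) all had a peak on all 6 arrays, and 4 of them rose, 2 after quantile normalization. Slc22a4, of this group, had 1.97 and 1.89 in PL2F8 and 1.74 and 1.26 in AB2.2, where the duplicates of AB2.2 differed by more than the groups did, and its rise of 0.43 was lost after quantile normalization (0.14), with centring on named starts (0.22) and without PL2F8 replicate 1 (0.39), and was 0.19 without AB2.2 replicate 2 and 0.67 without AB2.2 replicate 1. Slc14a1, a urea carrier, had 0.56 and 0.54 in PL2F8 and 0.56 and 0.59 in AB2.2, and was not called (limma adjusted p = 0.713), but it was a called fall after quantile normalization (-0.15) and with centring on named starts (-0.23).

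The 39 carriers of inorganic ions had means of 0.91 ± 0.041 in PL2F8 and 0.60 ± 0.079 in AB2.2, with 24 rises, 2 falls and 13 not called, or 17 rises and 8 falls after quantile normalization. The largest rise of the whole family was at Slc8a2, a sodium-calcium exchanger of brain whose start the lists place at 16715648 on chromosome 7. It had 1.24 and 1.22 in PL2F8, 0.14 and -0.044 in AB2.2, 0.65 after Brca1 specific siRNA and 1.38 after control siRNA. The PL2F8 and AB2.2 arrays were far apart, with a difference of 1.18 (SE 0.077, adjusted p = 6.76e-05), while the R1 array with control siRNA stood above PL2F8. Slc8a3, its paralogue in muscle and brain, had a higher level and rose by 0.74, with 2.52 and 2.38 in PL2F8 and 1.82 and 1.60 in AB2.2. Of the 8 members named Slc9, sodium-proton exchangers and their regulators, 6 rose. Slc9a3, the exchanger of the brush border of gut and kidney, had 2.00 and 1.80 in PL2F8 and 0.90 and 0.83 in AB2.2, a rise of 1.04, and Slc9a2, an epithelial exchanger, had 2.82 and 2.67 in PL2F8 and 2.18 and 2.03 in AB2.2, a rise of 0.64. All 3 Slc24 exchangers rose, 2 of them also after quantile normalization, Slc24a4 by 0.50 (SE 0.10, adjusted p = 0.00311). Slc13a5, a citrate carrier of liver and brain, fell, with 0.96 and 0.84 in PL2F8 and 1.41 and 1.43 in AB2.2, a difference of -0.52 (SE 0.068, adjusted p = 0.000372).

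Among 18 metal carriers 12 rose and 0 fell, or 8 and 1 after quantile normalization, with class means of 0.97 ± 0.048 in PL2F8 and 0.63 ± 0.085 in AB2.2. The zinc exporters of the Slc30 subfamily had a median level of 1.07 and the zinc importers of the Slc39 subfamily 0.28. Slc30a2, a zinc exporter, had 1.82 and 1.75 in PL2F8 and 1.45 and 1.24 in AB2.2, and its rise was not called within 1 kb of the start (0.28). Slc41a3, a magnesium carrier, rose by 0.92, with 1.00 and 0.91 in PL2F8 and 0.011 and 0.048 in AB2.2. Slc40a1, the iron exporter, had 1.56 and 1.51 in PL2F8 and 1.39 and 1.24 in AB2.2, and its difference of 0.22 turned to -0.099 after quantile normalization and was not called without either PL2F8 array (0.19 and 0.24); it was 0.14 without AB2.2 replicate 2. Slc31a1, the copper importer, had 0.36 and 0.28 in PL2F8 and 0.47 and 0.38 in AB2.2 and was not called (limma adjusted p = 0.199), but it was a called fall after quantile normalization (-0.24), with centring on named starts (-0.31) and without AB2.2 replicate 2 (-0.15).

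The 21 sugar class members, the 35 carriers of nucleosides, vitamins, nucleotide sugars and lipids and the 15 mitochondrial carriers had the lowest levels. The sugar class was made of whole subfamilies, so it includes members that carry other solutes, such as Slc5a7 and Slc5a8. Class means were 0.59 ± 0.027 in PL2F8 and 0.25 ± 0.073 in AB2.2 for sugars, 0.68 ± 0.034 in PL2F8 and 0.37 ± 0.086 in AB2.2 for the second class, and 0.57 ± 0.037 in PL2F8 and 0.14 ± 0.065 in AB2.2 for the third. In the sugar class 14 rose and 1 fell, or 12 and 4 after quantile normalization. In the Slc2 subfamily, the facilitative hexose carriers, 4 of 9 rose and none had a level above 1, whereas in the Slc5 subfamily of sodium-coupled carriers 5 of 7 rose and 4 were above 1; after quantile normalization 2 fell in each of these subfamilies. Slc5a1, the glucose carrier of the small intestine, had 1.52 and 1.41 in PL2F8 and 0.69 and 0.77 in AB2.2. Slc5a8, a carrier of short-chain monocarboxylates, had 2.28 and 2.11 in PL2F8 and 1.63 and 1.54 in AB2.2, and Slc5a7, the choline carrier of cholinergic neurons, had 1.54 and 1.46 in PL2F8 and 0.95 and 0.84 in AB2.2. Slc37a4, the glucose 6-phosphate carrier of the endoplasmic reticulum, rose by 1.09 (SE 0.095, adjusted p = 9.15e-05), with 0.86 and 0.82 in PL2F8 and -0.11 and -0.40 in AB2.2.

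The largest fall of the family was at Slc2a3, the glucose carrier best known from neurons, whose listed start is 122692537 on chromosome 6. It had -0.50 and -0.47 in PL2F8, 0.20 and 0.15 in AB2.2, -0.55 after Brca1 specific siRNA and 0.42 after control siRNA. The 2 PL2F8 arrays and the Brca1 siRNA array were all below -0.4, and the AB2.2 and control arrays were all above 0.1. The difference between PL2F8 and AB2.2 was -0.66 (SE 0.063, adjusted p = 0.000116); with the median of its 28 probes in place of the mean it was -0.23 and was not called. A peak was listed at its start on 1 of the 6 arrays.

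Of the 35 carriers of nucleosides, vitamins, nucleotide sugars and lipids 24 rose and 4 fell, or 20 and 8 after quantile normalization. All 3 Slc46 members rose, also after quantile normalization. Slc46a2, known from thymic stroma, had 1.58 and 1.47 in PL2F8, 0.42 and 0.32 in AB2.2, 1.53 after Brca1 specific siRNA and 1.22 after control siRNA, and rose by 1.15 (SE 0.072, adjusted p = 6.76e-05). Slc46a1, the proton-coupled folate carrier, rose by 0.89, with 0.33 and 0.25 in PL2F8 and -0.60 and -0.60 in AB2.2. Slc27a2, a fatty acid transport protein of liver and kidney, had 1.78 and 1.69 in PL2F8 and 0.89 and 0.81 in AB2.2, a rise of 0.89. Among the 15 nucleotide sugar carriers (Slc35) 10 rose and 3 fell. Slc35d3 had 2.62 and 2.43 in PL2F8 and 1.98 and 1.80 in AB2.2, and Slc35c1, the GDP-fucose carrier, had 2.06 and 1.97 in PL2F8 and 1.57 and 1.24 in AB2.2. The 3 that fell were Slc35a3, the carrier of UDP-N-acetylglucosamine, Slc35a2, the carrier of UDP-galactose, and Slc35a4. Slc35a3 fell by 0.35 on the log2 scale, with 0.67 and 0.68 in PL2F8 and 1.10 and 0.96 in AB2.2. Slc35a2 fell by 0.27, a call that was lost without PL2F8 replicate 2 (-0.24), and Slc35a4 fell by 0.24, a call that was lost without either PL2F8 array (-0.22 and -0.26). The choline-like carrier Slc44a5 had 2.56 and 2.49 in PL2F8 and 2.10 and 1.80 in AB2.2, whereas Slc44a3 fell, with 0.27 and 0.27 in PL2F8 and 0.70 and 0.67 in AB2.2.

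Of the 15 mitochondrial carriers (Slc25), 11 rose and 0 fell, by 0.47 in the median, the largest median of the 8 classes, although 1 fell after quantile normalization and 1 of the 15 had a level above 1. That member was Slc25a21, a carrier of oxodicarboxylates, with 2.07 and 1.93 in PL2F8, 1.21 and 1.16 in AB2.2, 1.81 after Brca1 specific siRNA and 1.94 after control siRNA. Slc25a28, a mitochondrial iron importer, rose by 0.93, with 0.68 and 0.56 in PL2F8 and -0.24 and -0.38 in AB2.2. Slc25a31, the adenine nucleotide carrier of the germ line, had 1.01 and 0.91 in PL2F8 and 0.32 and 0.26 in AB2.2, and Slc25a24, a carrier of ATP-magnesium and phosphate, had 0.98 and 0.94 in PL2F8 and 0.50 and 0.39 in AB2.2. Slc25a37, the other iron importer, had 0.19 and 0.20 in PL2F8 and 0.26 and 0.20 in AB2.2, which was not called (limma adjusted p = 0.665), but it was a called fall after quantile normalization (-0.19) and with centring on named starts (-0.24). Differences between classes were not tested.

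**Figure D3:**
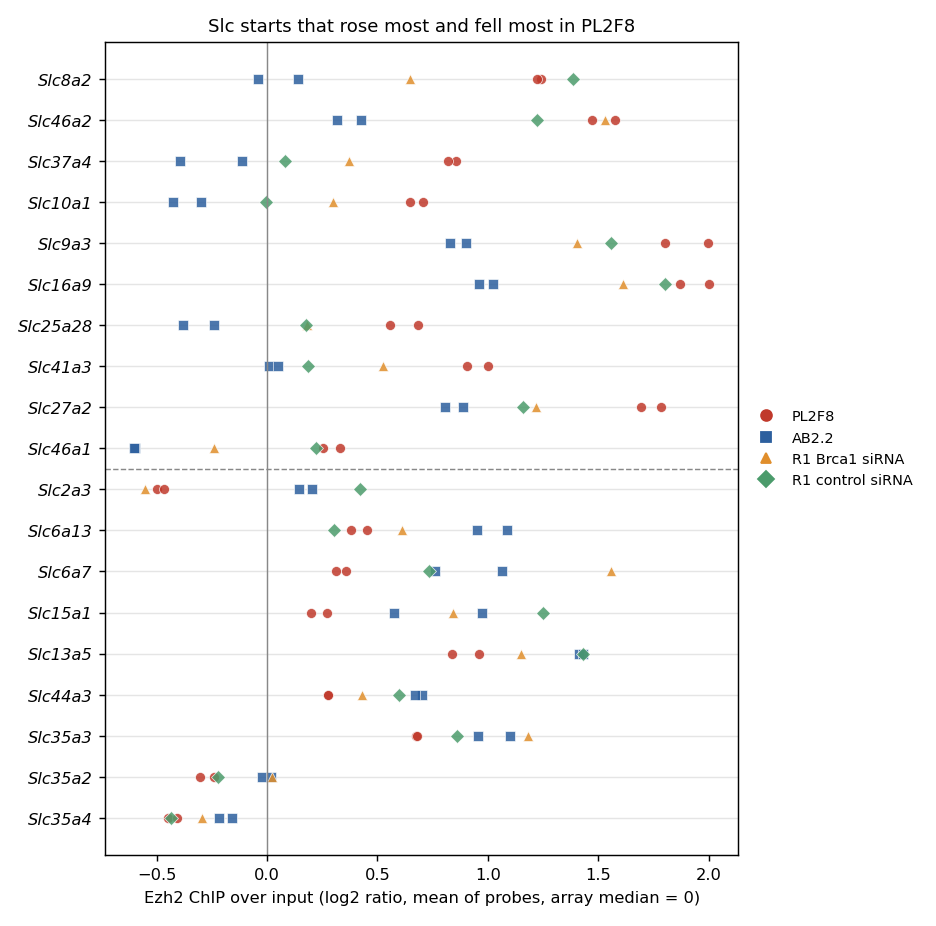
Mean log2 ratio of Ezh2 ChIP over input on each array for the 10 Slc genes that rose most (above the dashed line) and 9 of the 10 that fell most (below it) in PL2F8 against AB2.2; each point is 1 array. The genes were chosen for this difference; the R1 arrays were not used to choose them and lie between the PL2F8 and AB2.2 arrays at several genes, such as Slc9a3, and outside them at others, such as Slc2a3.

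The falls depended on whether the probes of a window were averaged. With the median of the probes in each window in place of the mean, 106 members rose and 5 fell. Over all named genes 47.3% rose and 4.76% fell under that choice. Of the 10 largest falls, 2 were then still called, at Slc15a1 and Slc13a5. Slc6a13 turned to 0.030 and Slc35a3 to 0.23, and Slc6a7 stood at -0.11, Slc44a3 at -0.020, Slc35a2 at -0.23 and Slc35a4 at -0.15, none of them called. The 10 largest rises were all called under that choice, while the rises at Slc17a5, Slc18a3 (0.28), Slc24a4 (0.36), Slc44a5 (0.44), Slc7a8 (0.15) and Slc40a1 (0.30) were not, and Slc39a4 turned to -0.17 and Slc6a15 to 0.19.

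Between the R1 arrays the differences of the family centred near 0, with single genes apart. Members higher by at least 0.5 with Brca1 specific siRNA numbered 5 and members lower by that much 6, where the background is 3.35% and 2.81% of all named genes, and the median difference was 0.0059. At 66 members the 2 arrays were within 0.1 of each other. With 1 array a condition there is no test, and these differences have no replicate check. The largest was at Slc2a3 (-0.97). Next came Slc6a7, higher by 0.82, with 1.56 after Brca1 specific siRNA and 0.74 after control siRNA, and Slc8a2 (-0.74, or -0.40 with the median of the Slc8a2 probes).

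Among those higher with Brca1 specific siRNA were Slc19a2, a thiamine carrier, with 0.60 against -0.012 with control siRNA, and Slc34a3, a renal phosphate carrier, with 0.60 against 0.021. Slc1a4, a neutral amino acid carrier, had 0.42 with Brca1 specific siRNA and -0.13 with control siRNA. Slc6a15 had 1.21 and Slc9a3r2 0.91 with Brca1 specific siRNA, against 0.68 and 0.42 with control siRNA. Among those lower, Slc27a1, a fatty acid transport protein, had 0.013 against 0.59 with control siRNA, and Slc5a4b had -0.23 against 0.34. Slc12a4, a potassium-chloride cotransporter of most cells, had 0.45 with Brca1 specific siRNA and 0.98 with control siRNA, and Slc12a3, the sodium-chloride cotransporter of the kidney, had 0.17 and 0.67 in the same order. The difference at Slc12a3 turned to 0.15 with the median of its probes, and those at Slc19a2 and Slc1a4 were 0.21 and 0.39 with that choice and 0.078 and 0.082 within 1 kb of the start. With the median of probes the differences were also smaller at Slc34a3 (0.31), Slc9a3r2 (0.33), Slc27a1 (-0.28) and Slc5a4b (-0.24) and larger at Slc6a15 (1.09), and within 1 kb they were 0.26 at Slc9a3r2 and -0.98 at Slc27a1. Of the 5 members higher by 0.5, 1 rose and 2 fell in PL2F8. Of the 6 lower by 0.5, 2 rose and 1 fell, which was Slc2a3. The matching shares over all named genes were not counted, and 5 and 6 members are too few to compare the 2 systems. At 16 members (7.96%), against 5.08% of all named genes, a called PL2F8 difference with arrays apart and the R1 difference ran opposite ways by at least 0.3 each. Other members passed the same limits in the same direction, such as Slc46a2 (1.15 and 0.31), Slc38a3 (0.80 and 0.39) and Slc2a3 (-0.66 and -0.97). The share of all named genes that did so was not counted, so the 16 do not show that the 2 comparisons mainly disagree.

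**Figure D4:**
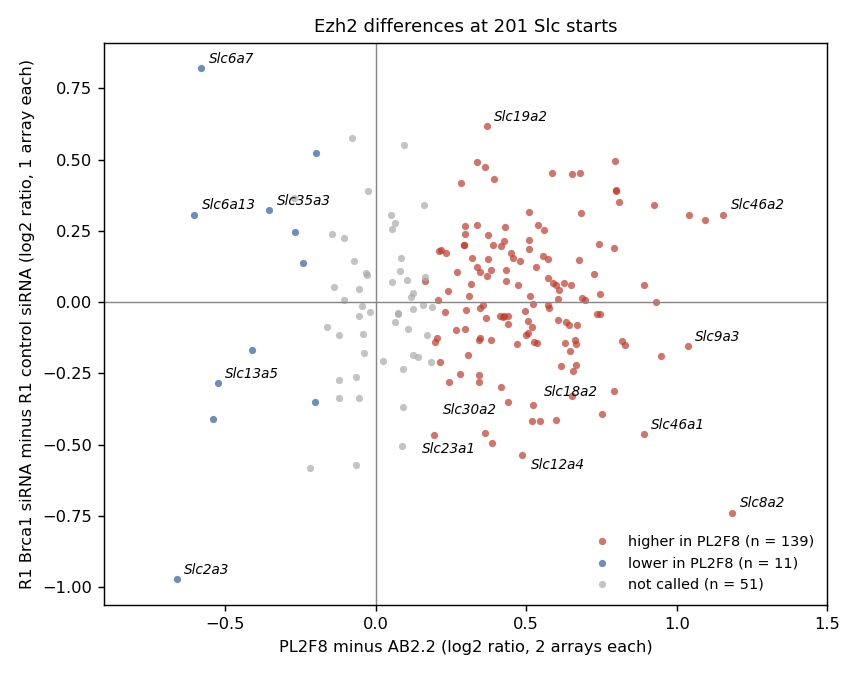
Difference in Ezh2 level between PL2F8 and AB2.2 (x axis, log2, means of 2 arrays each) against that between R1 Brca1 siRNA and R1 control siRNA (y axis, log2, 1 array each) for the 201 Slc genes, coloured by the limma call in PL2F8. Most genes lie right of 0 on the x axis and spread evenly about 0 on the y axis, and Slc2a3 is lowest on both.

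Around the start, the signal of the family was highest downstream. In bins of 250 bp, the mean over the 201 members peaked 250 to 500 bp after the start, at 1.88 and 1.78 in PL2F8, 1.44 and 1.13 in AB2.2, 1.62 with Brca1 specific siRNA and 1.65 with control siRNA. The gap between PL2F8 and AB2.2 was widest in the first 250 bp after the start, 0.79, and was 0.18 between 750 and 500 bp before it. Of the 67 members with a level above 1, 44 had their highest bin downstream of the start and 23 upstream. The 12 highest members carried signal over a long stretch, from 2.62 and 2.36 in PL2F8 and 2.00 and 1.85 in AB2.2 in the bin 750 to 500 bp before the start to 3.69 and 3.57 in PL2F8 and 3.36 and 2.91 in AB2.2 in the bin 250 to 500 bp after it. They were chosen for their mean over the whole window, which favours broad signal, so this stretch is no separate result. Mitochondrial carriers had almost none that far upstream, 0.15 and 0.13 in PL2F8 and 0.050 and 0.028 in AB2.2 in the bin 750 to 500 bp before the start, and in the first 250 bp after it 1.67 and 1.56 in PL2F8, 0.53 and 0.27 in AB2.2, 0.83 with Brca1 specific siRNA and 0.83 with control siRNA. The neurotransmitter carriers differed most between the lines, among the bins that hold all 22 of them, in the 250 bp before the start, by 0.88, and by -0.013 between 750 and 500 bp before it. Probes reach less far downstream than upstream, and 152 of the 201 members had a probe 750 to 1000 bp after the start, so a mean over the whole window weights the upstream side more.

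**Figure D5:**
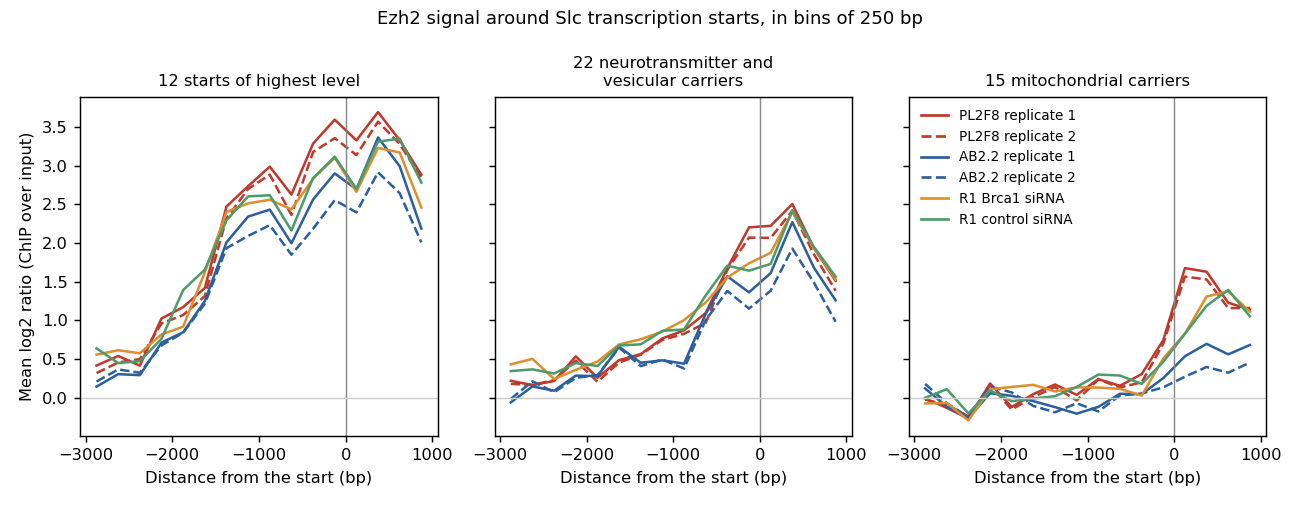
Mean log2 ratio of Ezh2 ChIP over input in bins of 250 bp from 3000 bp before to 1000 bp after the start, one line per array, for the 12 Slc genes of highest level, the 22 neurotransmitter carriers and the 15 mitochondrial carriers. The 12 highest were chosen for their mean over 2000 bp on each side. Their PL2F8 means were 1.02 and 0.96 in the bin 2250 to 2000 bp before the start. They were 2.47 and 2.32 in the bin 1500 to 1250 bp before it. The mitochondrial carriers carry signal only around and after the start, where both PL2F8 lines (red) stand above both AB2.2 lines (blue).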

How the data were processed

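Ezh2 ChIP and input DNA of 6 samples were compared on 2-colour promoter arrays of 714900 probes. Per the labels' protocols, the DNA was amplified by ligation-mediated PCR and the authors divided the normalized ChIP level by that of input; the table of probe values deposited by the authors holds log2 ratios, with array medians of 0.02 to 0.04, and the sources used here name neither the normalization method nor the genome build or peak caller. Peak scores deposited by the authors, per the file headers, correlated with the probe values in the same places at r = 0.969 to 0.986, and each peak carries an FDR, a fraction deposited by the authors. PCR amplification can compress or distort ratios, and without dye swaps a dye effect is part of every ratio.

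Each array was centred on its median, and probes within 2000 bp of a listed start were averaged (at least 5 probes; the start of highest mean for the 11 members with several). This gave values for 9612 named genes. PL2F8 and AB2.2 (2 arrays each, R1 left out) went into a limma fit (version 3.58.1, R 4.3.3, functions lmFit and eBayes, no covariate, two-sided, Benjamini-Hochberg over all named windows, threshold 0.05), which was tested on simulated data. The number of arrays limits the precision. R1 arrays were compared as values, with 0.5 as the size of a difference. Tables were handled with Python 3.11.15, numpy 2.4.6 and pandas 2.3.3, and figures drawn with matplotlib 3.10.9.

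Alternatives were quantile normalization, equal median absolute deviation, centring on named starts, the median of probes, 1 kb windows, all listed starts, 10 probes as minimum, windows with a listed peak, all 6 arrays, a replicate block, and each array left out; probes with 1 copy in the genome and members with an R1 peak were added after seeing the data. The members, carrier classes and lists were chosen with earlier results of these data known. Named were the 10 largest rises and falls with groups that did not overlap, the 12 highest and 5 lowest levels, the 6 highest and lowest R1 differences among genes with an R1 peak, in each class the 3 highest levels and the largest and smallest difference, all members of subfamilies 17, 18 and 32, and members that share probes with each other (0). Of the genes so chosen, 2 are not reported here.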

Additional observations from a re-analysis of the deposited data

Results flagged for a closer look

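At 9 of the named genes both PL2F8 arrays lay on one side of both AB2.2 arrays and the R1 array with Brca1 specific siRNA lay on the other side of its control, each by at least 0.3; over the whole family this held for 16 genes (7.96%), against 5.08% of all named genes. Whether the 2 differences differ was not tested, since the R1 comparison has 1 array a condition. Genes that ran the same way in both comparisons by at least 0.3, such as Slc46a2 and Slc2a3, were not flagged. In PL2F8 against AB2.2 the difference was 1.18 at Slc8a2, 0.89 at Slc46a1, 0.52 at Slc18a2, 0.49 at Slc12a4, 0.44 at Slc30a2 and 0.39 at Slc23a1, where the R1 differences were -0.74, -0.46, -0.36, -0.53, -0.35 and -0.49 in the same order. It was -0.60 at Slc6a13, -0.58 at Slc6a7 and -0.35 at Slc35a3, where the R1 differences were 0.31, 0.82 and 0.32. With the median of probes none of these falls was called, at 0.030, -0.11 and 0.23 in the same order. The R1 difference at Slc8a2 was -0.40 with that choice. No group had the 4 arrays needed to look for a single array that stands apart.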

How the results depend on the processing

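The direction of the family's median difference was the same under every alternative run, at 0.20 after quantile normalization, 0.16 with centring on named starts, 0.52 within 1 kb of the start and 0.33 to 0.40 when 1 array was left out. Leaving out an array gave 109 to 154 rises and 7 to 22 falls, and 56 to 80 rises and 3 to 5 falls of at least 0.5; such a fit assumes that the lone array varies as the other group does. Falls numbered 34 after quantile normalization, 38 with centring on named starts and 5 with the median of probes. The shares of all named genes that fell were 20.4%, 22% and 4.76%. Rises of at least 0.5 numbered 30, 24 and 69 in the same order, against 1135, 1012 and 2516 of the 9612 named genes. Falls of that size numbered 1 with the median of probes, against 82 of the 9612. In R1, 13 members were higher and 12 lower by 0.5 with the median of probes, 8 and 16 within 1 kb, and 10 lower with centring on named starts. Over all named genes 5.60% were higher and 3.67% lower with the median of probes, and 5.40% and 5.97% within 1 kb. With centring on named starts 4.09% of all named genes were lower. Peaks at an FDR of at most 0.05 numbered 100 in PL2F8 replicate 1, 97 with Brca1 specific siRNA and 95 with control siRNA. The shares of all named genes with such a peak were 41.7%, 42.9% and 40.7% in the same order. Mean class levels over the 6 arrays, with centring on named starts, the median of probes and 1 kb windows in that order, were 0.83, 1.07 and 1.58 for neurotransmitters, 0.66, 0.85 and 1.48 for organic ions, 0.41, 0.67 and 1.09 for inorganic ions, 0.40, 0.72 and 1.08 for metals, 0.38, 0.65 and 1.02 for amino acids, 0.14, 0.43 and 0.81 for nucleosides, vitamins and lipids, 0.087, 0.34 and 0.66 for sugars, and -0.00137, 0.30 and 0.58 for mitochondrial carriers, so the last turned sign with the first of these; moving the zero of the scale does this by construction. Differences of single genes that were called, or past 0.5 in R1, and turned sign were Slc35a3 (0.23), Slc39a4 (-0.17), Slc6a13 (0.030), Slc6a15 (0.19) and, in R1, Slc12a3 (0.15) with the median of probes, and Slc40a1 (-0.099) after quantile normalization; the cause was not tested. Differences between PL2F8 and AB2.2 that were not called also turned sign under at least 1 alternative at 7 named genes, Slc12a3, Slc14a1, Slc17a6, Slc1a4, Slc30a3, Slc31a1 and Slc34a3. Same-numbered PL2F8 and AB2.2 arrays deviated together with r = 0.25 over windows, but the labels do not say that the numbers pair them. A replicate block gave 146 rises and 16 falls with the same differences, among them Slc30a3 as a rise and Slc17a6 and Slc27a1 as falls. Over all named genes 69.3% rose and 10.6% fell with that block. A fit to all 6 arrays returned the same values, since lone arrays add no spread.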
